A study of Mus musculus with 2 samples.

Results

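The genes described here set the entry of a cell into division. They are the D-type cyclins Ccnd1, Ccnd2 and Ccnd3, the kinases Cdk4 and Cdk6 that these cyclins activate, the transcription factors Myc and Mycn, and the CDK inhibitors Cdkn1a, Cdkn1b and Cdkn2c. The members were chosen by name, as every probe set that the array annotation assigns to 1 of these 10 symbols alone. This gave 28 probe sets, of 34945 with a single gene symbol and 45101 in all.

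The study compared ovaries of mice at 2 days of age with and without over-activation of hedgehog signalling. The mutant pool came from Amhr2(cre/+)-SmoM2 mice and the control pool from Amhr2(+/+)-SmoM2 mice, with RNA of 8 mice combined in each pool and 1 Affymetrix array per pool. SmoM2 is a mutated Smoothened that signals without the ligand, and both genotypes carry its conditional allele. Cre, expressed from the Amhr2 locus in somatic cells of the gonad, is present in the mutant mice only. Mutant mice also have 1 changed copy of Amhr2, and the effects of Cre and of that copy cannot be told apart from that of SmoM2.

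With 1 array per pool there was no replicate check and no test. The spread that could be measured was that between probe sets of a gene, an SD of 0.38 on the log2 ratio over 13386 probe sets of 5118 genes. It was 0.48 in the dimmest of 4 equal parts of the probe sets by signal and 0.32 in the brightest. A probe set counted as measured where the higher of its 2 signals reached 80.7, the median of all signals. Log2 ratios are of mutant over control after adding 22.2 to both signals, which understates the difference of dim probe sets, while folds are of the signals themselves. The hedgehog response genes Ptch1 and Gli1 had log2 ratios of 1.51 and 1.19, and Hhip was at least 39.8-fold higher (3215.5 in the mutant pool against 1.1 in the control pool). The 18 probe sets of spiked hybridisation controls had a median log2 ratio of 0.23. Some of them are named for cre, which only the mutant mice carry, and centring without those was not tried. The ratio of 3′ to 5′ signal for Actb was 10.5 in the mutant pool against 8.48 in the control pool. For Gapdh it was 4.98 in the mutant pool against 3.28 in the control pool. Both ratios were thus higher in the mutant pool, and their part in the disagreement between probe sets of a gene was not tested.

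As background, a D-type cyclin bound to Cdk4 or Cdk6 phosphorylates the retinoblastoma protein, which then releases E2F transcription factors and lets the genes of DNA replication be expressed. Inhibitors of the CIP/KIP family (Cdkn1a, Cdkn1b) bind cyclin-CDK complexes, and those of the INK4 family (Cdkn2c) bind Cdk4 and Cdk6 alone. Myc proteins pair with Max at E-box sequences and raise the genes of cell growth. In the mouse cerebellum, hedgehog signalling raises Mycn and D-type cyclins in granule cell precursors, and in the mouse ovary Ccnd2 is the D-type cyclin that granulosa cells need to proliferate.

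The 10 genes did not differ in 1 direction. Mycn and Myc were higher in the mutant pool, Ccnd2 was lower on 6 of its 7 probe sets, and Ccnd3, Cdk6 and Cdkn1a were lower by less than 1.5-fold on their brightest probe sets. Of the 28 probe sets 22 were measured and 6 were under the signal minimum in both pools. Among the measured ones, 2 (9.09%) reached 1.5-fold upward, against 8.81% of all 20576 measured probe sets with 1 gene symbol. Only 1 (4.55%) reached 1.5-fold downward, against 9.87% of all. Both shares rest on 22 probe sets, and the share of higher ones was near that of all probe sets. The median log2 ratio was -0.33 over the 22 probe sets and -0.04 over all. Ccnd2 alone supplied 7 of the 22, so this median leans on 1 gene: with each gene at its brightest measured probe set the 10 genes had a median of 0.18, against -0.02 over 12308 genes, a median that was -0.05 when centred on the spiked controls and -0.33 without probe sets named as detecting several transcripts, which leaves Myc out and turns Cdk4. Centring the log2 ratios on the spiked controls lowers every value by 0.23, and then 0 of the 22 reached 1.5-fold upward and 10 downward, against 4.51% and 21.7% of all measured probe sets.

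**Figure D1:**
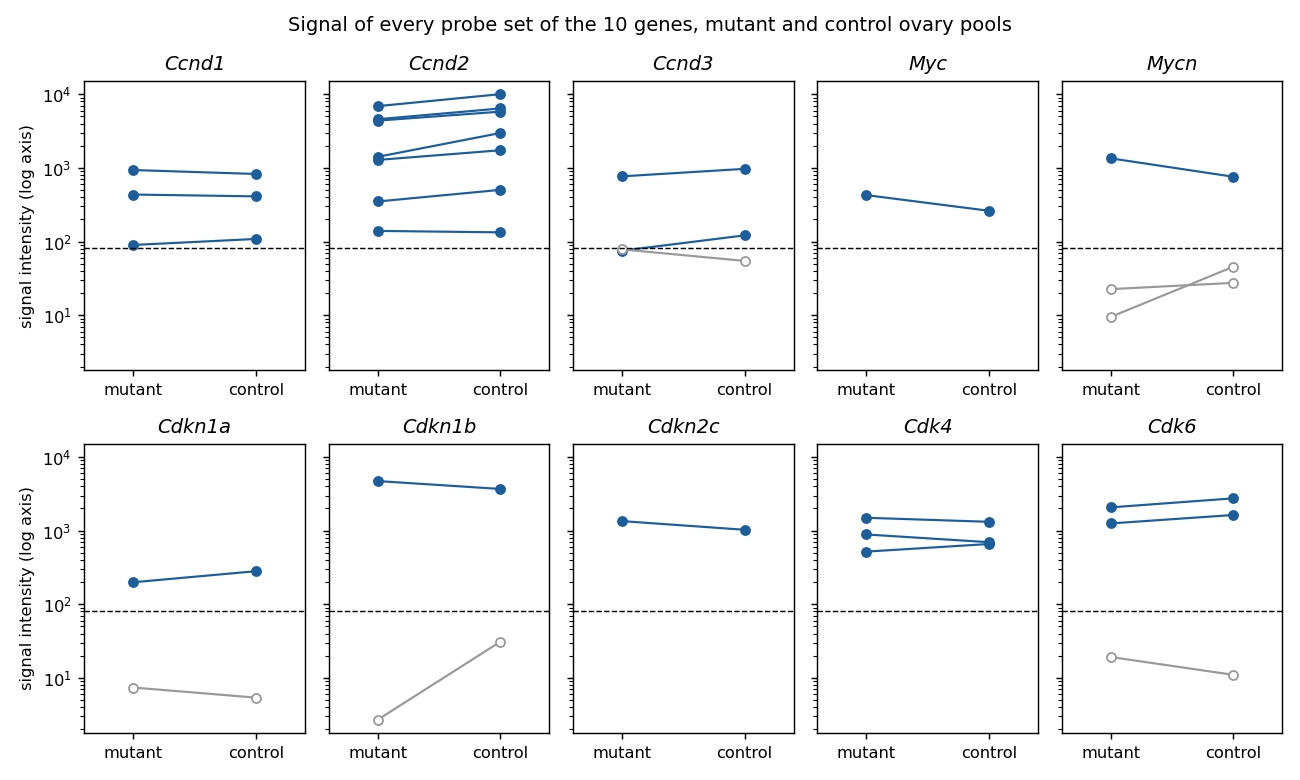
Signal intensity (log axis) of each probe set of the 10 genes in the mutant and control pools, 1 array each, with a line joining the signals of 1 probe set. The dashed line is the signal minimum of 80.7, and open grey points are the 6 probe sets under it in both pools. The lines of Ccnd2 lie lower in the mutant pool for 6 of 7 probe sets, whereas the measured ones of Myc and Mycn lie higher.

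Mycn, the Myc family member best known from neural and embryonic progenitors, had a signal of 1348.6 in the mutant pool against 758.7 in the control pool on probe set 1417155_at. This is 1.78-fold, with a log2 ratio of 0.81, which stood at percentile 95.5 of all measured probe sets and was the highest among the 22. Its other 2 probe sets were too dim to count. Probe set 1425923_at read 9.5 in the mutant pool against 45.6 in the control pool, and 1425922_a_at read 22.6 in the mutant pool against 27.5 in the control pool, so the difference rests on 1 probe set. Those dim probe sets are annotated to a shared sequence that is not the one behind 1417155_at. With the ratios centred on the spiked controls the log2 ratio of 1417155_at was 0.58, just under 1.5-fold.

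Myc, the widely expressed family member, had 1 probe set, 1424942_a_at. It read 427.1 in the mutant pool against 261.8 in the control pool, 1.63-fold higher, with a log2 ratio of 0.66 at percentile 93.0. The name of that probe set marks it as able to detect several transcripts of the gene, and no second probe set was there to set against it. Its log2 ratio was under the 1.5-fold line with the ratios centred on the spiked controls (0.43) and with a pseudocount of 80.7 (0.57). Mycl, a further family member, read 562.9 in the mutant pool against 562.4 in the control pool, with a log2 ratio of 0.001, and was named after its values were seen.

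The promoter of Mycn is shown because Mycn had the highest log2 ratio of the 10 genes and because E2F factors are known to act on this promoter in human neuroblastoma cells. The sequence is RefSeq's for GRCm38.p6, chr12:12941787-12942086 on the minus strand, from 250 bases before to 50 after the start of the gene, and the capitals mark the E2F word TTTGGCGC.
Mycn: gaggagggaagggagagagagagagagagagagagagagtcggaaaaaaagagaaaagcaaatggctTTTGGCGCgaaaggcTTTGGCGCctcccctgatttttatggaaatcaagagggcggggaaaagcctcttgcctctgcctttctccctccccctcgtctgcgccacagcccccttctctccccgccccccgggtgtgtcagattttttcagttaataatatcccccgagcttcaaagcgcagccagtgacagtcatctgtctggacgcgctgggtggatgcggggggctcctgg
That word occurred 2 times, at 183 and 168 bases before the start. The search covered both strands for TTTCCCGC and TTTGGCGC, which 1.56% of 32851 promoters of this length hold. The hedgehog-responsive GLI word GACCACCCA was in 0.253% of all promoters and in 0 of the 10 promoters listed for 7 of the 10 genes. A word this rare would seldom be met among 10 promoters. No promoter was listed for Ccnd1, Ccnd2 and Myc, so these were not searched. A match is a description of the letters in this window only.

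Among the D-type cyclins, Ccnd2 was the one that differed most, and it was lower in the mutant pool. Its brightest probe set, 1434745_at, read 6902.7 in the mutant pool against 10039.0 in the control pool, a log2 ratio of -0.54. Probe set 1416122_at read 4586.2 in the mutant pool against 6418.8 in the control pool. Probe set 1455956_x_at read 4388.3 in the mutant pool against 5810.9 in the control pool. These 3 bright probe sets lay between 1.32-fold and 1.45-fold lower, under the 1.5-fold line. Centred on the spiked controls they crossed it, at -0.77, -0.71 and -0.63, and the brightest also did after quantile normalization, at -0.59.

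The 4 dimmer probe sets of Ccnd2 held both ends of its range. Probe set 1448229_s_at read 1414.9 in the mutant pool against 2978.5 in the control pool, 2.11-fold lower, with a log2 ratio of -1.06 at percentile 1.62 of all measured probe sets. Probe set 1430127_a_at read 1284.2 in the mutant pool against 1737.2 in the control pool, and 1416123_at read 350.2 in the mutant pool against 503.6 in the control pool. Only 1416124_at, the dimmest, was not lower, at 139.6 in the mutant pool against 133.4 in the control pool, with a log2 ratio of 0.06 that became -0.17 when centred on the spiked controls. Without the lowest and the highest probe set, which narrows the band by construction, the other 5 lay between -0.54 and -0.40. Over all 7 the SD was 0.33, beside the probe-set SD of 0.38 over all genes.

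The probe sets of Ccnd2 disagreed even where their annotated target was the same. Both extremes belong to the 4 probe sets annotated to the same RefSeq transcript, which spanned -1.06 to 0.06, while the 3 annotated to other sequences or to none spanned only -0.54 to -0.40. The 3 probe sets named as able to detect several transcripts, by endings of _a_at, _s_at and _x_at, had a median log2 ratio of -0.43. The 4 others had -0.49. Whether probe sets with such endings, among them the lowest of Ccnd2, detect the named gene alone was not checked. The full range of 1.12 was exceeded by 7 of the 18 other genes with 7 measured probe sets, whose median range was 0.91. Probe sets of opposite sign occurred in 16 of those 18 genes.

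Ccnd1, the D-type cyclin often named as a hedgehog target, differed little. Probe set 1448698_at read 936.4 in the mutant pool against 828.1 in the control pool, and 1417420_at read 435.1 in the mutant pool against 411.1 in the control pool. Their log2 ratios of 0.17 and 0.08 turned to -0.06 and -0.15 when centred on the spiked controls. The dimmest, 1417419_at, read 89.9 in the mutant pool against 108.5 in the control pool, a log2 ratio of -0.22. All 3 lay within the probe-set SD of 0, and all are annotated to 1 RefSeq transcript.

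Ccnd3, a cyclin prominent in differentiating and blood-forming cells, was lower on both of its measured probe sets. The brighter, 1415907_at, read 768.5 in the mutant pool against 971.9 in the control pool, a log2 ratio of -0.33. The dimmer, 1444323_at, read 75.2 in the mutant pool against 121.4 in the control pool, with a log2 ratio of -0.56 and, since the mutant signal was under the minimum, a bound of at least 1.504-fold lower. By its log2 ratio it was not counted as 1.5-fold lower. The remaining probe set, 1438805_at, was too dim at 78.3 in the mutant pool against 54.6 in the control pool and pointed the other way. Set beside Ccnd1, 6 of the 7 probe sets of Ccnd2 and both of Ccnd3 lay under the lowest of Ccnd1. That lowest one, the dim 1417419_at, stood at percentile 32.3, so 32.3% of all measured probe sets lay at or under it. Probe sets of a gene are not independent readings. The medians of Ccnd2 and Ccnd1 were 0.56 apart on the log2 ratio, and those of Ccnd3 and Ccnd2 0.04 apart.

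**Figure D2:**
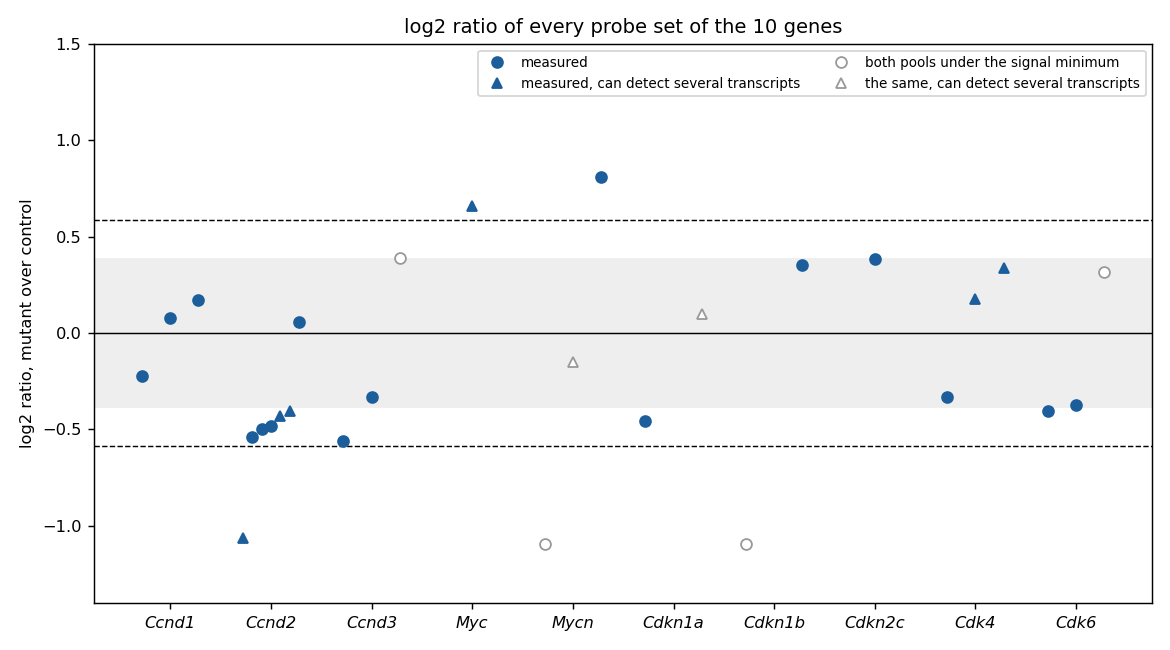
Log2 ratio of mutant over control for every probe set of the 10 genes, with triangles for those able to detect several transcripts and open grey symbols for those under the signal minimum in both pools. The grey band is the probe-set SD of 0.38 to either side of 0 and the dashed lines mark 1.5-fold. Measured symbols beyond the lines are Mycn at 0.81, Myc at 0.66 and 1 of Ccnd2 at -1.06.

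The partner kinases split as well. Cdk6 was lower on both measured probe sets, which differed from each other by only 0.03 on the log2 ratio. Probe set 1435338_at read 2070.6 in the mutant pool against 2745.6 in the control pool, and 1455287_at read 1252.9 in the mutant pool against 1631.7 in the control pool, with log2 ratios of -0.40 and -0.38. A range larger than this was found in 95.4% of the 3134 other genes with 2 measured probe sets. Both are annotated to the same sequence, so they are not independent. The probe set annotated to the RefSeq transcript, 1460291_at, was dim, at 19.2 in the mutant pool against 11.0 in the control pool.

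Cdk4 gave no single direction. Probe set 1422441_x_at read 1494.7 in the mutant pool against 1317.9 in the control pool, and its log2 ratio of 0.18 turned to -0.05 when centred on the spiked controls. Probe set 1422439_a_at read 886.7 in the mutant pool against 696.5 in the control pool, a log2 ratio of 0.34. Probe set 1422440_at, the only one of the 3 not named as able to detect several transcripts, read 518.9 in the mutant pool against 658.7 in the control pool, a log2 ratio of -0.33. All 3 are annotated to the same RefSeq transcript. Probe sets of opposite sign were found in 58.7% of the 1230 other genes with 3 measured probe sets.

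The promoter of Cdk4 is shown because Cdk4 is a known target of Myc proteins, and both Myc genes were higher while the probe sets of Cdk4 went both ways. The sequence is RefSeq's for GRCm38.p6, chr10:127063285-127063584 on the plus strand, over the same window, and the capitals mark the E-box CACGTG.
Cdk4: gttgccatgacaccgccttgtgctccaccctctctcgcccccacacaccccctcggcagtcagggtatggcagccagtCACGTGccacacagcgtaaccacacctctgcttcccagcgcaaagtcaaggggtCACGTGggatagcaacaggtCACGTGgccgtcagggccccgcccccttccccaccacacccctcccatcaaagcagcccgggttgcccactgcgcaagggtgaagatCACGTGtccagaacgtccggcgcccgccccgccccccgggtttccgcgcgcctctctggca
The E-box, which reads the same on both strands, occurred 4 times, at 172, 118, 98 and 11 bases before the start. It was in 7.15% of all promoters and in 3 of the 10 listed for these genes. The others were 1 of the promoters of Cdkn2c and that of Cdk6, with 1 E-box each. Cdk4, Cdk6 and Cdkn2c had log2 ratios of 0.18, -0.40 and 0.38 on their brightest probe sets, all within 1.5-fold. A part of this word in these values was not tested.

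The inhibitors were within 1.5-fold on every measured probe set. Cdkn1a, a CIP/KIP inhibitor induced by p53 and repressed by Myc, read 199.0 in the mutant pool against 281.1 in the control pool on 1424638_at, a log2 ratio of -0.46. Its second probe set, 1421679_a_at, read 7.4 in the mutant pool against 5.4 in the control pool. Cdkn1b, the CIP/KIP inhibitor that holds many resting cells out of the cycle, read 4713.7 in the mutant pool against 3681.2 in the control pool on 1434045_at, a log2 ratio of 0.35. Its other probe set, 1419497_at, annotated to the RefSeq transcript, read only 2.7 in the mutant pool against 30.9 in the control pool and so gives no second reading. Cdkn2c, an INK4 inhibitor, read 1346.8 in the mutant pool against 1027.3 in the control pool on its single probe set, a log2 ratio of 0.38. Cdkn1b and Cdkn2c thus lay 1.28-fold and 1.31-fold higher and Cdkn1a 1.41-fold lower, each on 1 probe set.

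Among the other inhibitors of these families, 0 of 4 measured genes reached 1.5-fold upward and 1 reached it downward. The shares of all measured genes were 9.32% and 7.90%. Cdkn2a, the INK4/ARF locus, read 102.1 in the mutant pool against 170.5 in the control pool, 1.67-fold lower, close to the signal minimum. Cdkn1c, an imprinted CIP/KIP inhibitor, Cdkn2d and Cdkn2b had log2 ratios of 0.04, -0.34 and 0.27 (Cdkn2b read 93.3 in the mutant pool against 73.6 in the control pool). These 3 were named after their values were seen.

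Lists of related cell-cycle, Myc and p53 genes showed few differences of this size. Over 9 lists, 96 of 103 listed symbols were measured, Skp1 being listed under an older symbol as well. Among them 3 (3.12%) reached 1.5-fold upward and 5 (5.21%) downward, against 9.32% and 7.90% of 12308 measured genes, and their median log2 ratio was -0.01. Centred on the spiked controls, the split was 1 upward and 17 downward, against 4.96% and 18.8% of all measured genes. Cyclins and kinases of the G1/S step, such as Cdk2 and Ccne1 (named after their values were seen), had 0 of 8 genes beyond 1.5-fold in either direction, with log2 ratios from -0.27 to 0.36.

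Among the retinoblastoma family and E2F factors 1 of 12 measured genes reached 1.5-fold upward and 1 downward, against 9.32% and 7.90% of all measured. E2f1, an activating E2F factor, read 156.2 in the mutant pool against 391.2 in the control pool, 2.50-fold lower. Its second measured probe set read 104.7 in the mutant pool against 244.9 in the control pool, with a log2 ratio of -1.07 against -1.21 for the first. A dim one, at 59.7 in the mutant pool against 40.3 in the control pool, did not follow. E2f8, a repressing E2F factor, read 1139.3 in the mutant pool against 719.8 in the control pool, 1.58-fold higher. Rb1, the retinoblastoma gene itself, had a log2 ratio of -0.31 and its relative Rbl1 0.55, both named after their values were seen.

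Of 11 partners and antagonists of Myc, beside 9.32% upward and 7.90% downward over all measured genes, 1 reached 1.5-fold upward and 0 downward. It was Zbtb17, the zinc finger factor through which Myc represses inhibitor genes, at 315.6 in the mutant pool against 119.2 in the control pool (2.65-fold). On its second probe set both signals were too dim, at 57.9 in the mutant pool against 49.7 in the control pool. Max, the obligate partner, had a log2 ratio of -0.06, named after its value was seen. Of 18 Myc target genes, such as those of ribosome assembly, 0 were beyond 1.5-fold in either direction with the signals as deposited, and their median log2 ratio was -0.12. Centred on the spiked controls 4 of the 18 were past 1.5-fold downward, against 18.8% of all measured genes. Without probe sets for several transcripts 1 was, against 8.59% of all. The log2 ratios of the Myc targets ran from -0.58 for Fbl to 0.23 for Srm, both named after their values were seen.

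Genes that govern the breakdown of these proteins went both ways, with 1 of 10 measured past 1.5-fold upward and 1 downward. With the signals as deposited, the shares of all measured genes were 9.32% and 7.90%, here and for the lists that follow. Skp2, the ubiquitin ligase subunit that marks Cdkn1b for breakdown, read 2679.7 in the mutant pool against 1759.8 in the control pool, 1.52-fold higher. It was within 1.5-fold by the mean of its probe sets (0.22), without those for several transcripts (0.27) and centred on the spiked controls (0.37). Of its 5 measured probe sets 4 had positive log2 ratios and 1, at 97.8 in the mutant pool against 162.0 in the control pool, a negative one. Usp28, a deubiquitinase that stabilises Myc, read 622.4 in the mutant pool against 967.5 in the control pool, 1.55-fold lower. Its log2 ratio of -0.62 was within 1.5-fold when centred on the median of all probe sets (-0.57) and after quantile normalization (-0.58). E2F target genes, with 16 measured, had 0 past 1.5-fold upward and 1 downward, and a median log2 ratio of -0.08. Centred on the spiked controls 3 were downward, against 18.8% of all measured genes. The 1 gene lower with the signals as deposited was Mybl2, a transcription factor of cycling cells. It read 222.5 in the mutant pool against 346.6 in the control pool. Its second probe set read 118.8 in the mutant pool against 115.8 in the control pool, and the gene was within 1.5-fold when centred on the median of all probe sets and after quantile normalization (-0.55 and -0.54). Of 9 measured mitotic genes 0 were beyond 1.5-fold with the signals as deposited, and their median was 0.01. When centred on the spiked controls 2 were past 1.5-fold downward, again beside 18.8% of all measured genes. Among 8 measured genes of the p53 pathway that also controls Cdkn1a, Gadd45a, a stress-induced growth arrest gene, was 1.64-fold lower, at 236.8 in the mutant pool against 387.2 in the control pool, and 0 reached 1.5-fold upward.

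**Figure D3:**
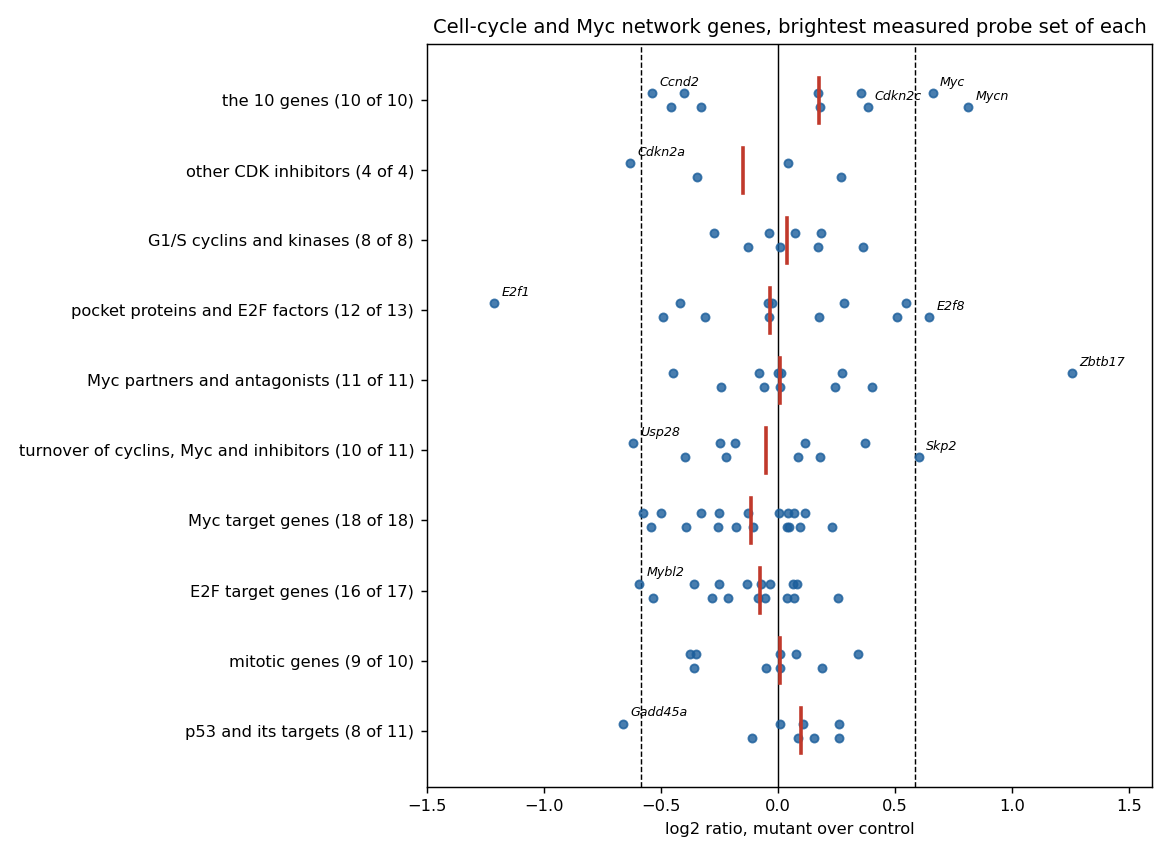
Log2 ratio of mutant over control for the 10 genes and 9 lists of related genes, each gene (point) at its brightest measured probe set, with the number measured of those listed. Red bars are medians and dashed lines mark 1.5-fold. Of the 96 genes of the lists 88 lie between the lines, and the points of E2f1 at -1.21 and Zbtb17 at 1.26 lie farthest from 0.

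Markers of the cell types of the ovary also differed between the pools. They were counted with the signals as deposited only, not centred on the spiked controls. Of all 12308 measured genes, 7.90% were past 1.5-fold downward and 9.32% upward. The pregranulosa list had 6 of 8 measured genes past 1.5-fold downward and 0 upward. Its summed signal was 30109 in the mutant pool against 41568 in the control pool. This list holds Amhr2, whose own allele bears the Cre insertion in these mutants, and without it 5 of 7 were past 1.5-fold downward, with sums of 26623 in the mutant pool against 32977 in the control pool. The defining gene Foxl2 had a log2 ratio of -0.95, while Fshr and Esr2 were under the signal minimum in both pools. Oocyte markers had 5 of 10 past 1.5-fold downward and 0 upward, with sums of 26366 in the mutant pool against 41908.5 in the control pool. Ccnd2 on its brightest probe set, at -0.54, was less low than the pregranulosa median of -0.81, or -0.67 without Amhr2. In pooled whole ovaries fewer cells of a type and less RNA per cell cannot be told apart, and the part of cell types in the values of Ccnd2 was not tested.

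Markers of most other cell types were higher alongside Mycn and Myc. Of all measured genes, 9.32% were past 1.5-fold upward and 7.90% downward. Gonadal stroma had 7 of 8 measured markers past 1.5-fold upward and 0 downward, with sums of 47280 in the mutant pool against 27650 in the control pool. All 6 measured steroidogenic genes were higher, with sums of 53091 in the mutant pool against 9416 in the control pool. Endothelial markers had 3 of 7 higher (sums of 3219 in the mutant pool against 2429 in the control pool), leukocyte markers 4 of 8 (8332 in the mutant pool against 5118 in the control pool) and smooth muscle markers 4 of 7 with 1 lower (20845 in the mutant pool against 11924 in the control pool). Erythroid markers had 0 of 4 higher and 2 lower, with sums of 1283 in the mutant pool against 2718 in the control pool. The part of these cell types in the values of Mycn and Myc was not tested. In this tissue labelled as ovary, 10 of 10 oocyte and 8 of 10 pregranulosa markers were measured, that is, reached the signal minimum in at least 1 pool.

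**Figure D4:**
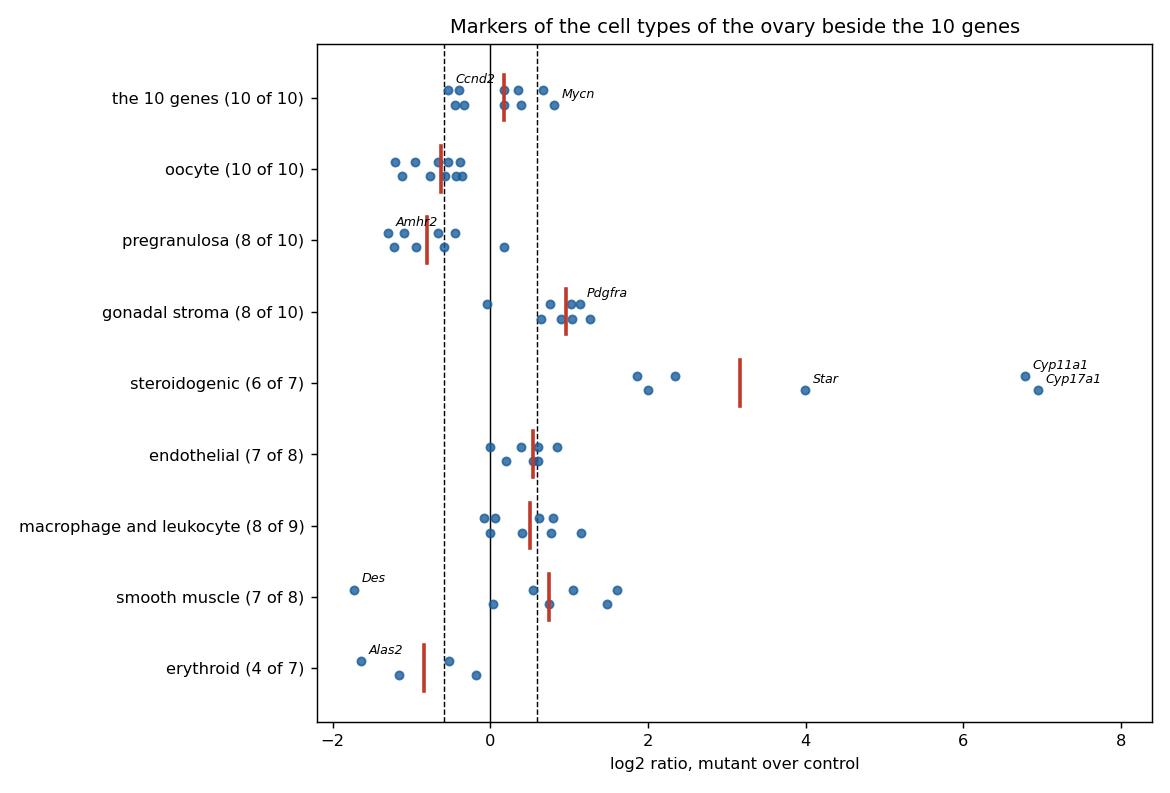
Log2 ratio of mutant over control for the 10 genes and for 8 lists of cell type markers, each gene (point) at its brightest measured probe set, with the number measured of those listed. Red bars are medians and dashed lines mark 1.5-fold. Oocyte, pregranulosa and erythroid medians lie below 0 (-0.62, -0.81 and -0.84) and the stromal and steroidogenic ones above it (0.96 and 3.17).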

How the data were processed

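Ovary RNA of 8 mice per genotype was pooled, labelled with biotin and hybridised to 1 array per pool, per the labels' protocols. The deposited values are linear signal intensities, from 0.1 to 50465, for which the submitters' processing notes name GCOS; its version and further parameters are not stated in them. Leaving out the top and bottom 2% of signals, the mean was 500.003 on both arrays, so they were used as deposited. Gene names came from the platform annotation, and all 10 genes matched a RefSeq table (GRCm38.p6) by Entrez ID. With 1 array per group no p-value was computed, and the number of arrays limits the precision.

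The signal minimum of 80.7 is the median, and the pseudocount of 22.2 the 25th percentile, of all signals. Where 1 signal is under the minimum the fold is a bound, the brighter signal over 80.7. The text names every probe set of the 10 genes, and of each other list up to 4 genes past 1.5-fold with the largest log2 ratio; Ptch1, Gli1 and Hhip check the pathway. Genes outside this rule are marked in the text, apart from the array controls Actb and Gapdh and markers under the minimum. Members and lists were chosen with earlier results of these data known. Calculations used Python 3.11.15, numpy 2.4.6 and pandas 2.3.3, and were tested on simulated data. The simulated differences were larger, and their probe sets brighter, than many described here. That test therefore does not show how reliable calls near 1.5-fold are. Other pseudocounts, minimums, scalings, folds and probe sets were tried.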

Additional observations from a re-analysis of the deposited data

How the results depend on the processing

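Signs held for 18 of the 22 measured probe sets of the 10 genes under every alternative, and the other 4 changed sign only with the log2 ratios centred on the spiked controls. None moved by more than the probe-set SD. Against 2 probe sets at least 1.5-fold higher (8.81% of all measured), there was 1 with a pseudocount of 80.7 (5.89% of all). The count was also 1 with a signal minimum of 442.4 (7.02%), and 1 leaving out probe sets for several transcripts (8.86%). It was 0 centred on the spiked controls (4.51%) and 0 at 2-fold (2.89%). Against 1 lower (9.87% of all measured), there were 2 with a pseudocount of 1 (11.7% of all) and 3 with a minimum of 22.2 (12.9%). Those 3 include the dim 1425923_at of Mycn and 1419497_at of Cdkn1b (-1.10 and -1.09), opposite in sign to the measured probe sets of these genes. The count was 2 after quantile normalization (8.86%), 10 centred on the spiked controls (21.7%) and 0 leaving out probe sets for several transcripts (10.4%). The 8 genes of the related lists beyond 1.5-fold became 3 with a pseudocount of 80.7 and 3 with a signal minimum of 442.4. There were 18 centred on the spiked controls (1 higher and 17 lower) and 2 at 2-fold. The shares of all measured genes moved too, from 9.32% higher and 7.90% lower. They were 6.67% and 4.96% with the pseudocount of 80.7, and 7.07% and 5.71% with the minimum of 442.4. Centred on the spiked controls they were 4.96% and 18.8%, and at 2-fold both were smaller. Of the 8, Usp28, Mybl2, Skp2, Cdkn2a and Gadd45a were within 1.5-fold with the pseudocount of 80.7, and E2f8 and Skp2 when centred on the spiked controls. E2f1 and Zbtb17, the farthest from 0, were too dim to count at the signal minimum of 442.4, as were Cdkn2a, Gadd45a and Mybl2. The cause was not tested, apart from the smaller number of probe sets or the shift that an alternative brings by construction. The spread between probe sets, the median of the 10 genes, the split of the related lists by direction and the pregranulosa list without Amhr2 were computed as alternatives chosen after seeing the data. The spread lay between 0.31 and 0.48. The median log2 ratio of the 22 stayed between -0.56 and -0.29. No paired analysis was possible because each group holds 1 array.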
